A study of Mus musculus with 6 samples.

Results

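Protein-coding genes that cover at least 500 kb of the genome and were expressed in ovarian granulosa cells (GCs) numbered 76 among the 54532 genes of the deposited table. They were chosen by 3 values of that table. The gene was annotated as protein-coding, its end minus its start was at least 500000 bases, and the mean of its 6 FPKM values (fragments per kilobase of exonic sequence, scaled to depth) was at least 0.5. Rora, Thrb, Rarb and Esrrg were left out by name, and 1 of these 4 would otherwise have entered. Of 231 protein-coding genes of at least 500 kb, 154 lay under the FPKM limit, and 9 of those had no read in any sample. The question was whether cyclophosphamide (CTX), whose metabolites alkylate DNA, lowered the RNA of very long genes relative to genes of shorter span.

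The GCs came from 3-week-old female ICR mice that had received 5 IU of PMSG (a gonadotropin that makes antral follicles grow) and, 22 h later, an intraperitoneal injection of PBS or of 120 mg/kg CTX. They were collected 6 h after that injection. Each group had 3 samples, and each sample pooled the GCs of 3 mice. For these samples the paper states only that GCs were extracted from ovaries. It describes puncture of antral follicles for GCs taken into culture, and states no sorting step. The levels are those of a bulk sample, in which fewer cells of a type and less RNA per cell cannot be told apart.

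RNA polymerase II copies a gene from its start to its end in a single pass, so a very long gene takes far longer to complete than a short gene, and a lesion anywhere along the template can stop the polymerase. Cyclophosphamide is converted in the body to phosphoramide mustard, which forms adducts and crosslinks between DNA strands. A polymerase that stalls at such a lesion is recognised by transcription-coupled repair, in which Ercc6, Ercc8 and Uvssa act before the TFIIH complex opens the DNA. Many very long genes encode proteins of neurons and cell contacts, and several of them are common fragile sites, regions that tend to break when replication is slowed.

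The 76 genes had a median span of 622467 bases, with a range from 502985 (Dock1) to 2960899 (Fgfr2), and 13 of them covered at least 1 Mb. Almost all of that length was intron. Exonic sequence made up a median of 1.62% of the span, against 18.9% in the 11925 expressed protein-coding genes under 500 kb. Their median exonic length was 11489 bases, against 4301 bases, and their principal transcripts held a median of 20.5 exons, against 9. They were expressed at low levels, with a median of the mean FPKM of 2.35, against 7.70, and 8 of the 76 (10.5%) reached 10 FPKM, against 41.5% of the shorter genes. The median number of reads per sample was 534, with a range from 28.7 to 17504. They lay on 20 chromosomes, with 8 on chromosome 13 and 7 on chromosome 6. Together they took 0.449%, 0.409% and 0.378% of the reads in PBS replicates 1, 2 and 3, and 0.414%, 0.548% and 0.445% in CTX replicates 1, 2 and 3. The highest share was that of CTX replicate 2, and the shares of the other 2 CTX samples lay within the range of the PBS samples.

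The limits of the rule were close to measured values on both sides. By span, Dock1 (502985 bases) and Fgf13 (505926 bases) were the nearest inside, and Prkce (490134 bases) and Unc13c (489544 bases) the nearest outside. By mean FPKM, Nckap5 (0.543) and Grik2 (0.564) were the nearest inside, and Magi2 (0.486) and Thsd4 (0.472) the nearest outside. In both groups taken alone, 73 of the 76 passed 0.5 FPKM, while Grik2 and Rgs6 passed after PBS only and Rbms3 after CTX only.

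The annotated span of a gene is that of its outermost transcripts, and the span of the principal transcript was shorter in some members. In 57 of the 76, the principal transcript itself covered at least 500 kb. In 5 it covered under 200 kb, namely 35501 bases in Rasgef1b, 57197 in Sema6d, 72291 in Fgf13, 102482 in Fgfr2 and 178817 in Auts2. Of the 62 members with a start in the RefSeq promoter table (GRCm38.p6), 48 had a start within 1 kb of the 5' end of the annotated gene, and 10 had none within 100 kb of it. The 250 bases before the RefSeq start are given for the 3 members with the lowest p-values that had a single start there, because they show which start an annotated span refers to. The start of Exoc4 on the plus strand (chr6:33248878-33249127) lay 0.043 kb from the 5' end of the gene. That of Rasgef1b on the minus strand (chr5:99252928-99253177) lay 476.1 kb inside the gene, and that of Fgfr2 on the minus strand (chr7:130266809-130267058) lay 2857 kb inside it. Capitals mark a GC box (GGGCGG) or a CCAAT box (CCAAT) on either strand.
Exoc4 promoter: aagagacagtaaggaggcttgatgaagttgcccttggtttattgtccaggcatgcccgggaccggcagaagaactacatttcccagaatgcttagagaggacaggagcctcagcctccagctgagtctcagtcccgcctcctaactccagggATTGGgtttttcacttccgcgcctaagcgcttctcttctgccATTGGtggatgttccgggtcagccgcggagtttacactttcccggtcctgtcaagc
Rasgef1b promoter: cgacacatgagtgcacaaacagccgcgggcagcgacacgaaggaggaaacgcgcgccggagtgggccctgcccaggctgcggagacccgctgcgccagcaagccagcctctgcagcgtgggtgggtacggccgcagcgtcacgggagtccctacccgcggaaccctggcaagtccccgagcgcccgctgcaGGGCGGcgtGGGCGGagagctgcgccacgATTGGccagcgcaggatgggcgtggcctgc
Fgfr2 promoter: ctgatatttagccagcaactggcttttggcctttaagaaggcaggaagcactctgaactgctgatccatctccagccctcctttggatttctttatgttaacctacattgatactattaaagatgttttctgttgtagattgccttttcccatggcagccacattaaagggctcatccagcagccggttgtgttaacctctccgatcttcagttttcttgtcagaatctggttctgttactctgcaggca

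The 3 windows differed in base composition, with 54.8% G and C in Exoc4, 72.4% in Rasgef1b and 44.0% in Fgfr2. Exoc4 held 2 CCAAT boxes and no GC box, Rasgef1b held 2 GC boxes and 1 CCAAT box, and Fgfr2 held neither. Over the whole windows of 300 bases, which run 50 bases past the start, a GC box occurred in 44.2% of the 95 windows of the long genes and in 35.7% of all 32851 windows. A CCAAT box occurred in 30.5% and 37.4%. The TATA box (TATAAA), also read on both strands, occurred in 7.37% and 13.6%, and the CRE (TGACGTCA) in 2.11% and 1.79%. An AP-1 site (TGANTCA) was found in 5.26% and 7.81% of the windows. The median G and C content was 58.3% in the windows of the long genes and 52.7% in all windows. These are matches of letters, and several windows belong to the same gene.

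The median long gene was not lower after CTX treatment than after PBS, and single long genes rarely passed the test in either direction. Across the 14463 genes tested with limma on log2(FPKM + 0.1), 0.802% were upregulated (adjusted p under 0.05 and more than 2-fold) and 0.159% downregulated. Among the 76 long genes, 1 was upregulated, Exoc4, and 0 were downregulated. By adjusted p alone, 1.40% of all genes tested were higher and 0.360% lower after CTX treatment, and again 1 long gene was higher and 0 were lower. At an unadjusted limma p under 0.05, 7 long genes (9.21%) were higher, against 10.5% of all genes tested, and 1 (1.32%) was lower, against 9.10%. limma's voom on the rebuilt reads called 3 long genes higher and 1 lower by adjusted p alone, and 1.54% of all genes tested higher and 0.456% lower. The counts of long genes called by adjusted p are too small to be read against the background.

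The samples of the groups did not overlap in 20 long genes. Every CTX sample exceeded every PBS sample in 13 of the 76 (17.1%), where 15.0% of all genes tested did, and every CTX sample was below every PBS sample in 7 (9.21%), where 14.1% did. In the shorter protein-coding genes these shares were 16.5% and 14.4%. Among the 7 below, Grik2 and Rgs6 passed the FPKM limit after PBS only, so their falls are not independent of that limit. The log2 fold change was above 0 in 54 of the 76 (71.1%), against 48.6% of all genes tested and 49.1% of the shorter protein-coding genes. Its median was 0.15 (quartiles -0.03 and 0.39) in the long genes, -0.01 in all genes tested and -0.00 in the shorter protein-coding genes. With CTX replicate 2 left out, 51 of the 76 lay above 0. The 95% interval of the fold change excluded a 2-fold fall in 67 of the 76 long genes (88.2%), against 91.2% of the shorter protein-coding genes and 85.3% of all genes tested. It excluded a fall of 25% in 52 long genes (68.4%), against 66.9% of the shorter protein-coding genes and 60.1% of all genes tested. The added 0.1 makes the fold changes of genes with a low FPKM too small.

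**Figure D1:**
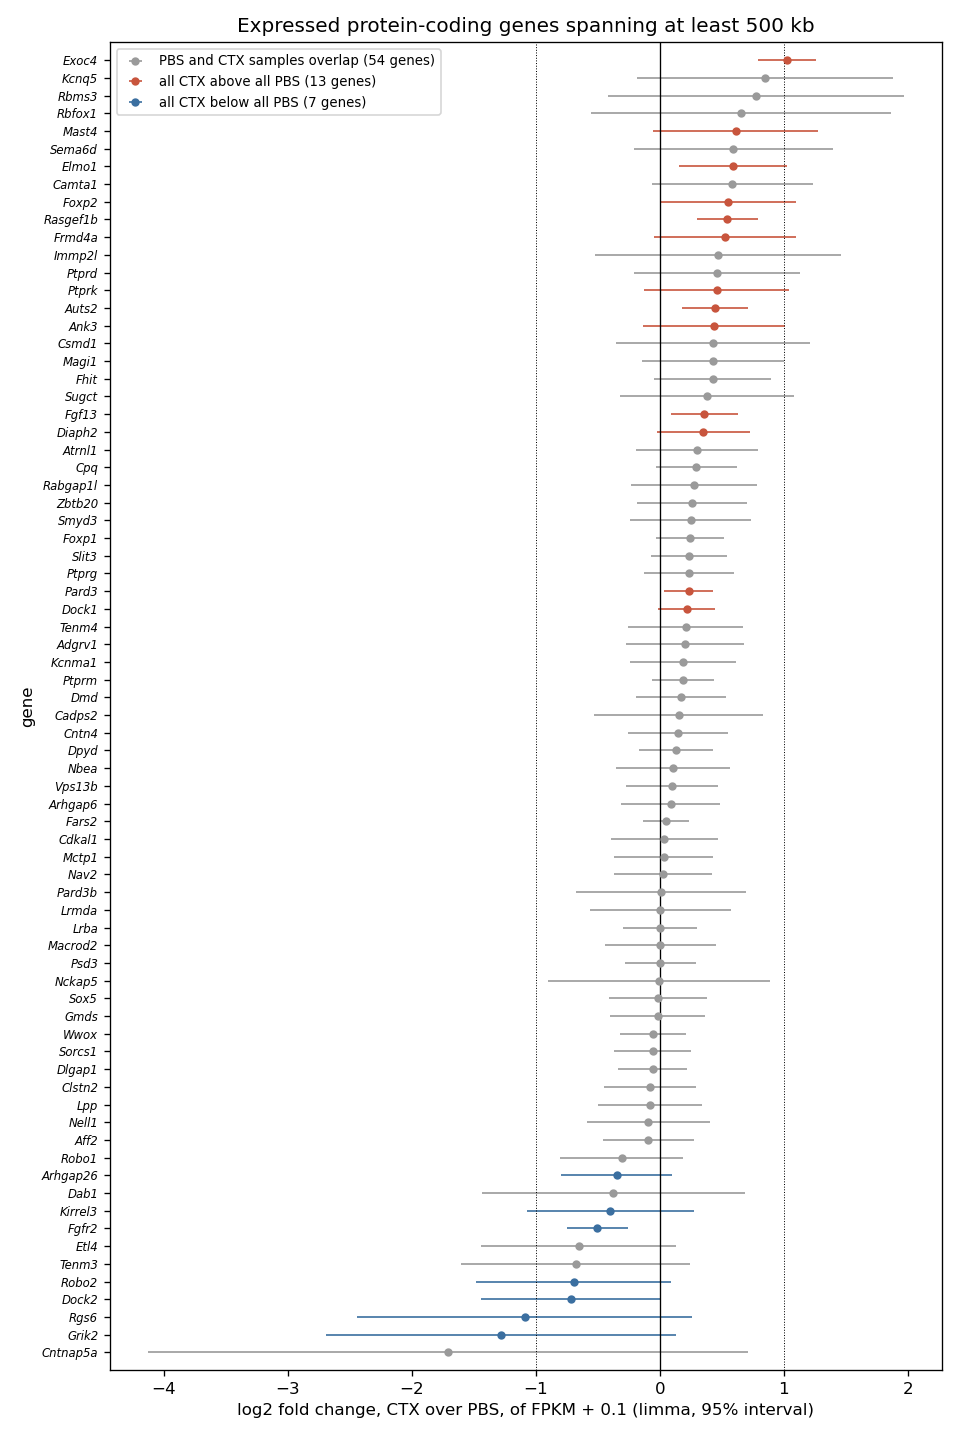
Log2 fold change of CTX over PBS (FPKM + 0.1, horizontal axis) with its 95% limma interval for 74 of the long genes, ordered by value. Red marks the 13 genes whose CTX samples all lay above the PBS samples, blue the 7 whose CTX samples all lay below, and grey the 54 drawn that overlapped. Dotted lines mark 2-fold, which Exoc4 at 1.03 passed upwards with an interval from 0.79 to 1.26. Cntnap5a (-1.71), Grik2 (-1.28) and Rgs6 (-1.09) lay past the lower line, with intervals that included 0.

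The median fold change was higher with each step of gene span, from -0.03 in the 2998 protein-coding genes under 10 kb to -0.02 in the 3980 genes of 10 to 30 kb and 0.01 in the 3500 genes of 30 to 100 kb. It was 0.06 in the 1002 genes of 100 to 200 kb, 0.08 in the 445 genes of 200 to 500 kb and 0.15 in the 76 long genes. Across the 12001 genes, Spearman's rho between span and log2 fold change was 0.0967, and within the 76 long genes it was -0.0196. Taken for each CTX sample against the PBS mean, rho across the 12001 genes was 0.0984 in replicate 1, 0.104 in replicate 2 and 0.0202 in replicate 3. Genes are not independent replicates, and all of these values come from the same 6 samples. The 13 genes of at least 1 Mb had a median of 0.17 and the 63 genes of 500 kb to 1 Mb a median of 0.13, while without CTX replicate 2 both medians were 0.08. The 57 long genes whose principal transcript also covered at least 500 kb had a median of 0.17, and the other 19 a median of 0.03, and these too were both 0.08 without CTX replicate 2.

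**Figure D2:**
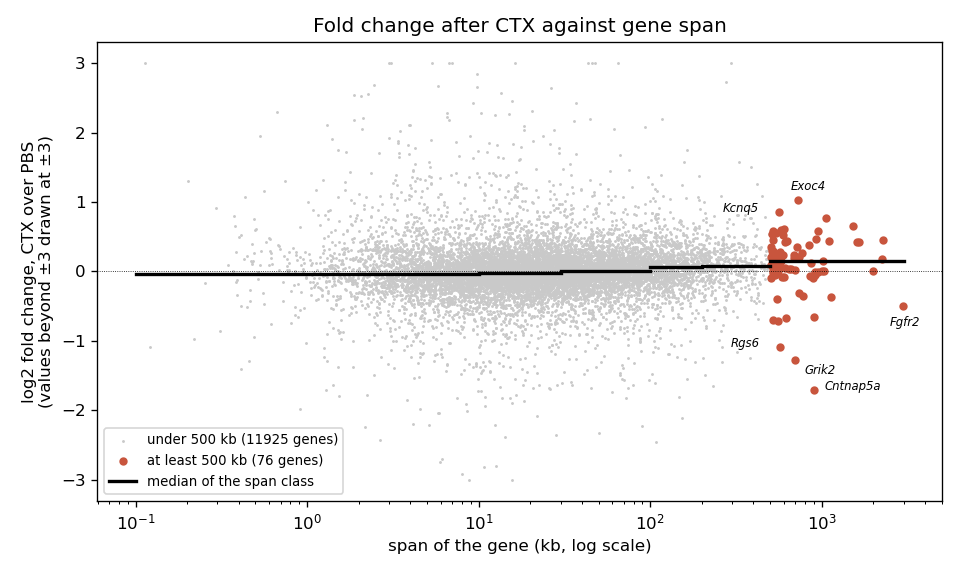
Log2 fold change of CTX over PBS (vertical axis) against the span of the gene in kb (log scale) for 12001 expressed protein-coding genes. Grey points are the 11925 genes under 500 kb, red points the 76 long genes, and black bars the medians of 6 classes of span, which go from -0.03 to 0.15 and are small beside the spread of single genes.

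The samples themselves differed by gene span within a group. Set against the PBS mean of each gene, the median long gene stood at 0.10, -0.03 and -0.09 in PBS replicates 1, 2 and 3 and at 0.07, 0.24 and 0.12 in CTX replicates 1, 2 and 3, on the log2(FPKM + 0.1) scale. CTX replicate 1 thus lay below PBS replicate 1, and the groups overlapped. In the genes under 10 kb the order of the PBS samples was turned, with -0.04, -0.02 and 0.06. The SD between replicates of the median of the long genes was 0.089, and the difference between the groups was 0.15. Without CTX replicate 2 the median log2 fold change of the long genes was 0.08, and without CTX replicate 1 it was 0.23. The values without CTX replicate 2 were 0.08 in the genes of 200 to 500 kb, 0.04 in those of 100 to 200 kb, 0.00 in those of 30 to 100 kb, -0.02 in those of 10 to 30 kb and -0.01 in those under 10 kb. Without that sample the median was thus not higher at every step of span.

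**Figure D3:**
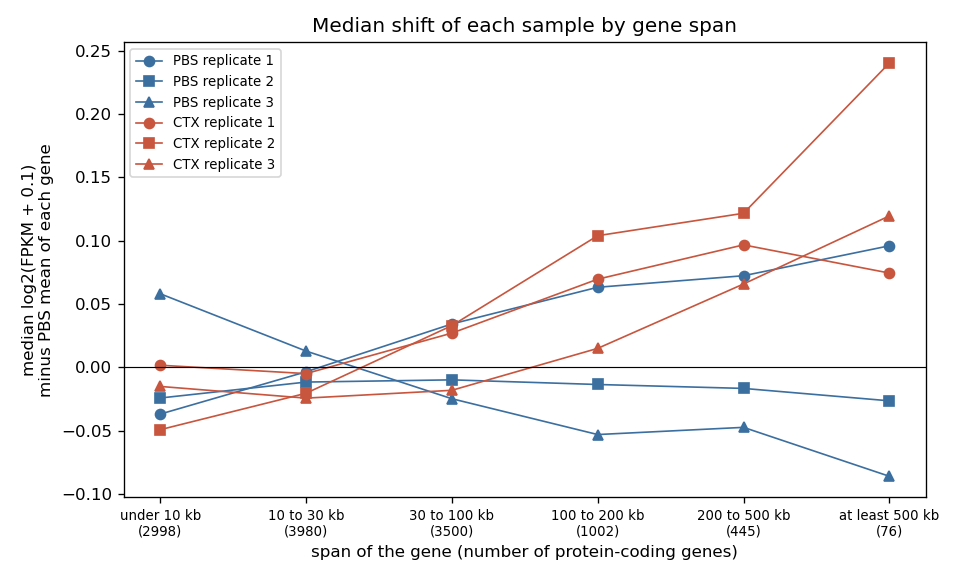
Median over genes of log2(FPKM + 0.1) minus the PBS mean of the gene (vertical axis) in each of the 6 samples, for 6 classes of gene span (horizontal axis, number of genes below). Blue lines are PBS and red lines CTX samples. In the long genes the PBS samples run from -0.09 to 0.10 and the CTX samples from 0.07 to 0.24.

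Long genes also have low FPKM and long exonic sequence, so the medians were taken again within classes of each. Among genes of 0.5 to 2 FPKM the median log2 fold change was 0.10 in 36 long genes and -0.01 in 2037 shorter genes. From 2 to 10 FPKM it was 0.19 in 32 long genes and -0.01 in 4945 shorter genes, and at 10 FPKM or more it was 0.22 in 8 long genes and 0.00 in 4943 shorter genes. Without CTX replicate 2 the medians of the long genes in these classes were 0.08, 0.13 and 0.04, so the highest class was then the lowest of the 3. Within classes of exonic length the difference was uneven. It was 0.37 against -0.01 under 5 kb of exonic sequence (8 long genes), 0.13 against -0.00 from 5 to 10 kb (19 long genes) and 0.24 against 0.02 at 20 kb or more (14 long genes). In the class of 10 to 20 kb, which held 35 of the 76 long genes, both medians lay near 0, at 0.01 in the long and 0.00 in the shorter genes. These differences between classes rested in large part on CTX replicate 2. Without it the medians of the long genes, from the shortest exonic class to the longest, were 0.10, 0.04, 0.07 and 0.11. Those of the shorter genes were 0.01, -0.01, -0.01 and -0.01.

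CTX replicate 2 stood apart from the other samples in the long genes and, by smaller distances, in all genes tested. It held the highest or the lowest of the 6 values in 54 of the 76 long genes (71.1%), against 58.1% of all genes tested, and it was the highest in 36 and the lowest in 18. The median absolute distance from the PBS mean was 0.51 on the log2 scale in CTX replicate 2, 0.17 in CTX replicate 1 and 0.22 in CTX replicate 3, against 0.29, 0.16 and 0.19 in all genes tested. In CTX replicate 2, 10 long genes were more than 2-fold above the PBS mean (Ptprd, Mast4, Camta1, Foxp2, Kcnq5, Csmd1, Sema6d, Rbms3, Rbfox1 and Immp2l) and 7 more than 2-fold below it (Etl4, Tenm3, Robo2, Cntnap5a, Dock2, Grik2 and Rgs6). These were 13.2% and 9.21% of the long genes, against 5.32% and 7.87% of all genes tested. In CTX replicate 1, and again in CTX replicate 3, 1 long gene (1.3%) was more than 2-fold above and 1 more than 2-fold below the PBS mean. Of all genes tested, 2.4% were above and 2.8% below in CTX replicate 1, and 3.3% and 2.3% in CTX replicate 3. Of the shorter protein-coding genes, 1.6% and 0.61% were in CTX replicate 1, and 2.1% and 0.92% in CTX replicate 3. A level more than 25% below the PBS mean was found in 4 long genes (5.26%) in CTX replicate 1, 11 (14.5%) in CTX replicate 2 and 7 (9.21%) in CTX replicate 3, against 9.72%, 19.2% and 9.71% of all genes tested. In the shorter protein-coding genes these shares were 5.33%, 16.7% and 6.93%, so that in CTX replicate 3 the share was higher in the long genes. By the fitted fold change, 10.5% of the long genes and 8.42% of the shorter protein-coding genes were more than 25% lower after CTX.

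**Figure D4:**
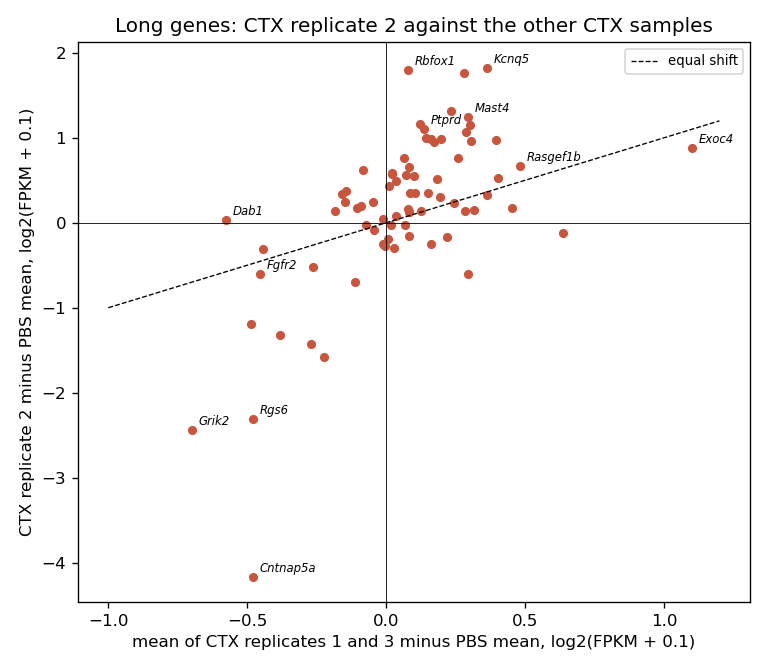
Shift from the PBS mean in CTX replicate 2 (vertical axis) against the mean shift in CTX replicates 1 and 3 (horizontal axis), both on the log2(FPKM + 0.1) scale, for the 76 long genes. The dashed line marks an equal shift. Most genes with a large shift in CTX replicate 2 lie far from that line, and Exoc4, Rasgef1b and Fgfr2 lie near it.

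Cell type markers moved in the same sample, and several granulosa markers in every CTX sample. The 11 granulosa markers were all expressed, and their summed FPKM was 11800 to 13030 in the PBS and 10660 to 11300 in the CTX samples. Most of that sum was Inha, at 9205 to 10400 FPKM after PBS and 8556 to 9180 FPKM after CTX. Of the 11, 8 had a log2 fold change below 0 and 3 above, and 0 passed the adjusted threshold of limma. Within that list, Amh stood at 48.4 to 51.1 FPKM after PBS and at 54.3, 179 and 85.5 in CTX replicates 1, 2 and 3, and Cyp19a1 at 59.2 to 62.4 and at 47.6, 6.61 and 32.5. Foxl2 stood at 184.2 to 193.5 FPKM after PBS and at 145.3, 76.9 and 107.3 in CTX replicates 1, 2 and 3. In the same order Fshr stood at 88.5 to 94.6 and at 80.5, 42.8 and 69.9, and Inhba at 753.7 to 902 and at 664.8, 211.3 and 487.1. The 8 theca and stroma markers summed to 73.2 to 74.7 FPKM in the PBS samples, 111 and 68.5 in CTX replicates 1 and 3, and 12.52 in CTX replicate 2. Cyp17a1 stood at 30.8 to 34.4 FPKM after PBS and at 1.25 in CTX replicate 2. Insl3 was higher in that sample, at 0.814 against 0.270 to 0.396 FPKM after PBS. The rest of the list was lower there than in every PBS sample, Dcn (1.08) and Lum (1.91) only slightly. The 6 endothelial markers summed to 6.64 to 7.22 after PBS and 2.61 to 5.94 after CTX, and the 6 leukocyte markers to 17.1 to 19.3 and 20.1 to 57.0. The 5 smooth muscle and pericyte markers summed to 8.76 to 10.2 after PBS and 16.5 to 21.4 after CTX. Most of that sum was Acta2, at 7.66 to 8.60 FPKM after PBS and 14.7 to 20.5 FPKM after CTX. Myh11, Des, Rgs5 and Cnn1 were low and overlapped between the groups. The 7 oocyte markers summed to 33.8 to 70.7 and 46.2 to 81.0, and the 3 red cell markers to 299 to 429 and 130 to 467. No marker was at 0 in all samples. The part of these shifts in the values of the long genes was not tested.

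Exoc4, a subunit of the exocyst that tethers secretory vesicles to the plasma membrane, was the only long gene past the threshold. It covers 724894 bases of chromosome 6 (33249085 to 33973979), and its principal transcript covers all of them. Its level was 4.46, 4.31 and 4.23 FPKM in the PBS samples and 9.96, 8.04 and 8.91 FPKM in the CTX samples, or 4.33 ± 0.118 and 8.97 ± 0.958 (mean ± SD, n = 3). Every CTX sample lay well above every PBS sample, with CTX replicate 2 the lowest of the 3. The log2 fold change was 1.03 (SE, the standard error, 0.10; limma adjusted p = 0.00585). The call was lost without PBS replicate 2 (adjusted p = 0.0524) and without PBS replicate 3 (adjusted p = 0.055), while the fold change was 1.02 and 1.01 there. Exoc4 passed without CTX replicate 2 (log2 fold change 1.10, adjusted p = 0.00241). The change fell short of 2-fold with a pseudocount of 1 (0.90), with scaling to library totals (0.997) and without CTX replicate 1 (0.95). No expressed protein-coding gene overlaps it.

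The list of membrane traffic and protein sorting, which holds Exoc4, had 6 members. All 6 had a log2 fold change above 0, and the list's median was 0.10, but without CTX replicate 2 only 3 of the 6 lay above 0 and the median was 0.03. Cadps2, which primes dense-core vesicles for release, had a value of 0.15, or -0.08 without that sample, and Vps13b, a lipid transfer protein of the Golgi, 0.10. Nbea and Lrba, related proteins of vesicle sorting, had values of 0.11 and 0.00. Mctp1, a membrane protein with calcium-binding domains, was among the 5 highest long genes and stood at 12.4, 11.3 and 11.2 FPKM after PBS and at 9.59, 15.1 and 11.6 FPKM after CTX. Its CTX samples lay on both sides of the PBS samples.

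After Exoc4, the lowest p-values belonged to Rasgef1b, Fgfr2 and Auts2, and none of the 3 passed the adjusted threshold. Rasgef1b, an exchange factor for small GTPases of the Ras family, stood at 4.91, 5.27 and 4.92 FPKM after PBS and at 6.48, 8.05 and 7.70 FPKM after CTX. Its log2 fold change was 0.54 (SE 0.10, limma adjusted p = 0.0645), and the groups did not overlap. Fgfr2, a receptor of fibroblast growth factors that granulosa cells carry, stood at 4.63, 4.32 and 4.43 FPKM after PBS and at 3.47, 2.91 and 2.99 FPKM after CTX. Its log2 fold change was -0.50 (SE 0.10, limma adjusted p = 0.0767), and it was the only long gene below 0 at an unadjusted p under 0.05. Auts2, a nuclear protein that joins a Polycomb complex, stood at 2.17, 2.19 and 1.91 FPKM after PBS and at 2.86, 3.06 and 2.72 FPKM after CTX, with a log2 fold change of 0.45 (SE 0.11, limma adjusted p = 0.122).

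These 3 genes were called by voom on the rebuilt reads, with adjusted p = 0.0417 for Rasgef1b, 0.0424 for Fgfr2 and 0.0489 for Auts2. Without CTX replicate 1, limma gave adjusted p = 0.0303 for Rasgef1b and 0.0471 for Fgfr2. Their principal transcripts are short, as given above. Of the 8 long genes with an unadjusted p under 0.05, 4 had a principal transcript under 200 kb (Rasgef1b, Fgfr2, Auts2 and Fgf13), where 5 of the 76 long genes did. The annotated span of Fgfr2 also runs over 19 expressed protein-coding genes, some on its own strand, and how reads in overlapping exons were assigned is not given in the sources used here.

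**Figure D5:**
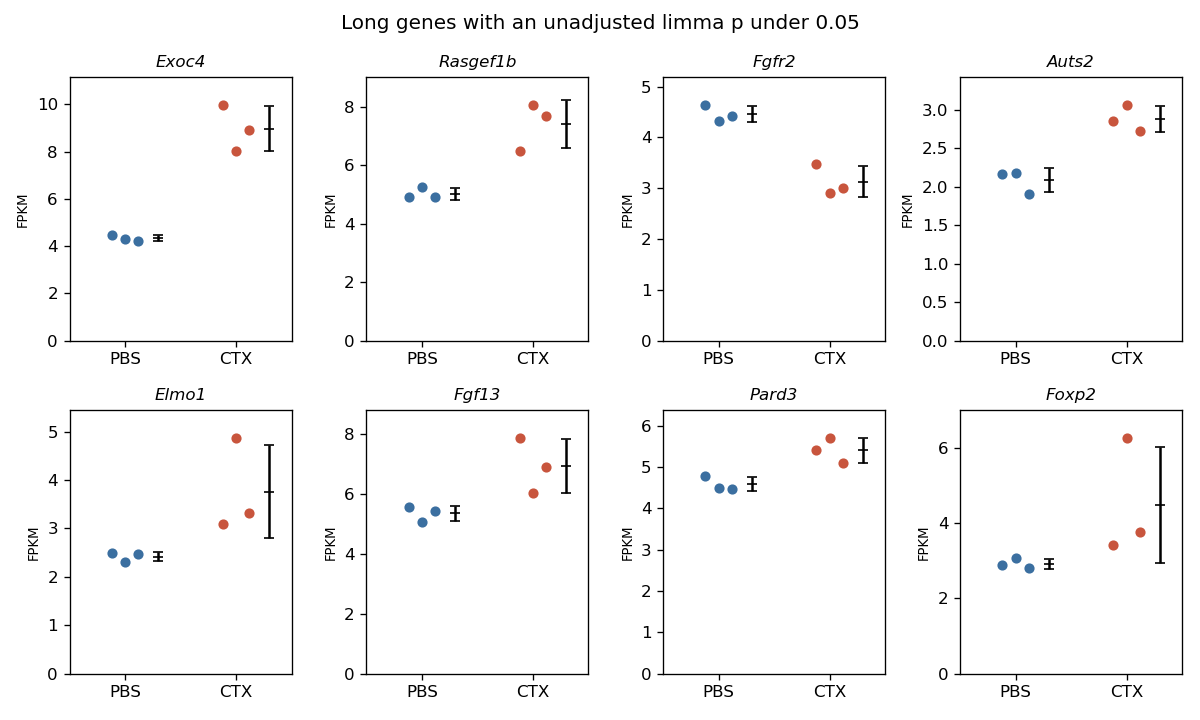
FPKM (vertical axis, from 0) of the 8 long genes with an unadjusted limma p under 0.05, in 3 PBS (blue) and 3 CTX (red) samples. Points are samples in the order of their replicate number, and black marks are the mean ± SD. In all 8 genes the groups do not overlap, and only Exoc4 had an adjusted p under 0.05.

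Among 7 transcription and chromatin factors, 6 had a log2 fold change above 0, and the median was 0.26, or 0.29 without CTX replicate 2. Foxp2, a forkhead repressor, stood at 2.89, 3.07 and 2.81 FPKM after PBS and at 3.41, 6.25 and 3.77 FPKM after CTX. All CTX samples lay above the PBS samples, CTX replicate 2 farthest, and the log2 fold change was 0.55 (adjusted p = 0.252), or 0.29 without that sample. Its relative Foxp1 had a value of 0.24. Camta1, a calmodulin-binding activator, had the largest value of the list, 0.58, and had 0.30 without CTX replicate 2. Camta1 shares its strand with the expressed genes Per3 and Vamp3, which lie within its span. Zbtb20, Smyd3 and Sox5 had values of 0.26, 0.25 and -0.01, and that of Smyd3 was 0.10 without CTX replicate 2. The 2 RNA-binding proteins, Rbms3 and the splicing factor Rbfox1, had values of 0.78 and 0.65, which were 0.28 and 0.08 without CTX replicate 2. Rbms3 passed the FPKM limit after CTX only, so its rise is not independent of that limit. Rbfox1 stood at 0.627, 2.79 and 0.964 FPKM in CTX replicates 1, 2 and 3, against 0.702 to 0.752 FPKM after PBS.

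The largest list, 13 cytoskeleton and scaffold proteins, had a median of 0.17, with 9 members above 0 and 4 below. The groups did not overlap in 5 members towards higher values (Dock1, Pard3, Diaph2, Ank3 and Elmo1) and in 2 towards lower values (Dock2 and Arhgap26). Over all genes tested, 15.0% lay apart towards higher and 14.1% towards lower values, and 13 members are too few to be read against these shares. Elmo1 and Dock1 form an exchange factor for Rac that drives engulfment of dying cells and cell migration. Elmo1 stood at 2.49, 2.31 and 2.46 FPKM after PBS and at 3.10, 4.86 and 3.33 FPKM after CTX, and its log2 fold change was 0.59 (adjusted p = 0.171). Dock1 stood at 7.39, 6.75 and 6.39 FPKM after PBS and at 7.66, 8.72 and 7.52 FPKM after CTX, with a log2 fold change of 0.22 (adjusted p = 0.272). Both had higher values in every CTX sample, and neither passed the adjusted threshold. Dock2, the relative of Dock1 found mainly in blood cells, stood at 0.855, 0.793 and 1.05 FPKM after PBS and at 0.628, 0.336 and 0.591 FPKM after CTX, with a log2 fold change of -0.72 (adjusted p = 0.255). Of the 6 leukocyte markers, Lyz2 and Cd68 were higher in every CTX sample than in every PBS sample, and the other 4 overlapped. Ptprc, the general leukocyte marker, stood at 0.0708 to 0.0983 FPKM after PBS and at 0.0640 to 0.0923 FPKM after CTX.

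Pard3, a polarity protein of cell junctions, stood at 4.78, 4.49 and 4.47 FPKM after PBS and at 5.42, 5.69 and 5.09 FPKM after CTX (log2 fold change 0.23, adjusted p = 0.206). Diaph2, an actin-nucleating formin whose human counterpart has been linked to ovarian failure, had a value of 0.35, or 0.36 without CTX replicate 2. Ank3, an ankyrin that anchors membrane proteins, had 0.44, and Magi1, a junction scaffold, 0.43, and these were 0.16 and 0.17 without that sample. Dmd (dystrophin), which ties actin to the membrane and covers 2257271 bases, stood at 1.45, 1.55 and 1.42 FPKM after PBS and at 1.45, 1.90 and 1.70 FPKM after CTX. The 95% interval of its log2 fold change ran from -0.19 to 0.54 and excluded a fall of 25%. Its log2 fold change was 0.17, or 0.09 without CTX replicate 2. Nav2, Pard3b, Dlgap1 and Lpp lay between -0.08 and 0.03, and Arhgap26 had a value of -0.35.

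Adhesion, guidance and matrix proteins were the list with the lowest median, -0.20, or -0.06 without CTX replicate 2. Of its 12 members, 5 lay above 0 and 7 below, and none passed the test. Robo1 and Robo2 are receptors of Slit ligands, which act in the ovary as in the nervous system. Robo1 stood at 22.02, 19.3 and 18.7 FPKM after PBS and at 21.7, 12.2 and 15.7 FPKM after CTX, and the groups overlapped, with a log2 fold change of -0.31, or -0.11 without CTX replicate 2. Robo2 stood at 1.30, 1.19 and 1.04 FPKM after PBS and at 1.02, 0.408 and 0.749 FPKM after CTX, with a log2 fold change of -0.70 (adjusted p = 0.29), or -0.38 without CTX replicate 2. The ligand gene Slit3 had a value of 0.23, or 0.28 without CTX replicate 2.

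Tenm4, a teneurin of cell contacts, was the highest long gene, with 50.1, 41.9 and 37.8 FPKM after PBS and 39.97, 64.5 and 47.7 FPKM after CTX. The log2 fold change was 0.21 (adjusted p = 0.557), and it was 0.02 without CTX replicate 2. Tenm3 had a value of -0.68, or -0.22 without that sample. Cntnap5a, a contactin-associated membrane protein, had the lowest value of all long genes, -1.71 with a SE of 1.00. It stood at 2.46, 1.85 and 1.69 FPKM after PBS and at 1.70, 0.0154 and 1.13 FPKM after CTX. Without CTX replicate 2 its log2 fold change was -0.48. The others were Kirrel3 (-0.40), Dab1 (-0.37), Nell1 (-0.09), Cntn4 (0.15), Csmd1 (0.43) and Sema6d (0.59). Csmd1, which covers 1643049 bases, stood at 0.938, 0.737 and 0.756 FPKM after PBS and at 0.713, 1.71 and 1.13 FPKM after CTX. Without CTX replicate 2 the values were -0.58 in Dab1, 0.14 in Csmd1 and 0.23 in Sema6d.

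Receptors and ligands held 5 members with a median of -0.06, or 0.01 without CTX replicate 2. Grik2, a subunit of kainate receptors for glutamate, stood at 0.915, 0.795 and 0.667 FPKM after PBS and at 0.646, 0.0638 and 0.299 FPKM after CTX. Its log2 fold change of -1.28 (SE 0.58) had an adjusted p of 0.283, and it was -0.70 without CTX replicate 2. Grik2 passed the FPKM limit after PBS only, so its fall is not independent of that limit. Fgf13, a fibroblast growth factor homologue that stays inside the cell, stood at 5.57, 5.08 and 5.42 FPKM after PBS and at 7.85, 6.04 and 6.90 FPKM after CTX. Its groups did not overlap, and the log2 fold change was 0.36 (adjusted p = 0.176). Sorcs1, a sorting receptor, and Adgrv1, an adhesion receptor, had values of -0.06 and 0.20, and that of Adgrv1 was 0.02 without CTX replicate 2.

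All 5 protein phosphatases and kinases had a log2 fold change above 0, with a median of 0.46, or 0.14 without CTX replicate 2. Mast4, a kinase bound to microtubules, stood at 3.74, 3.48 and 3.28 FPKM after PBS and at 3.84, 8.42 and 4.83 FPKM after CTX (log2 fold change 0.61, adjusted p = 0.279, or 0.29 without CTX replicate 2). Ptprd, Ptprg, Ptprk and Ptprm are receptor tyrosine phosphatases of cell contacts. Ptprd stood at 10.2, 8.67 and 8.59 FPKM after PBS and at 9.14, 19.7 and 11.0 FPKM after CTX, and Ptprg at 13.1, 11.9 and 11.1 FPKM and at 12.3, 17.7 and 13.02 FPKM. In both genes CTX replicate 2 was the highest sample, CTX replicate 1 lay within the range of the PBS samples, and the groups overlapped. The log2 fold change was 0.46 in Ptprd and 0.23 in Ptprg, or 0.14 and 0.07 without that sample. Ptprk had a value of 0.46 and Ptprm of 0.19, or 0.20 and 0.11 without it.

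Of 3 signalling genes, Rgs6, which ends signalling by G proteins, stood at 0.705, 0.805 and 0.862 FPKM after PBS and at 0.589, 0.0787 and 0.490 FPKM after CTX. Its log2 fold change was -1.09 (SE 0.56, adjusted p = 0.326), or -0.48 without CTX replicate 2. Like Grik2, it passed the FPKM limit after PBS only. Psd3 and Rabgap1l had values of 0.00 and 0.27. The potassium channel gene Kcnq5 had a value of 0.85 (SE 0.43), with 1.87, 6.58 and 2.89 FPKM in the CTX samples against 1.598 to 2.01 FPKM after PBS, and its relative in function Kcnma1 a value of 0.19. With CTX replicate 2 left out, the values were 0.36 in Kcnq5, 0.03 in Kcnma1 and 0.08 in Rabgap1l.

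The 8 genes of metabolism and glycosylation had a median of 0.07, with 6 above 0, and 0 passed the test by limma. Among them Immp2l, a peptidase of mitochondria, had the largest value, 0.47, and stood at 0.459, 0.655 and 1.04 FPKM after PBS and at 0.813, 1.66 and 0.701 FPKM after CTX. CTX replicates 1 and 3 lay within the range of the PBS samples, and without CTX replicate 2 the log2 fold change was 0.12. Fhit, a hydrolase, had 0.43, or 0.26 without that sample, and Dpyd, the first enzyme of pyrimidine breakdown, 0.13. Cdkal1 (0.04), Macrod2 (0.00), Gmds (-0.02) and Wwox (-0.06) lay near 0. Macrod2, with a span of 1997657 bases, stood at 0.914, 0.852 and 0.946 FPKM after PBS and at 1.00, 0.886 and 0.839 FPKM after CTX, and these overlapped fully.

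The remaining 12 long genes fell in none of these lists and had a median of 0.07, with 8 above 0. Rasgef1b and Frmd4a (0.53), a scaffold protein, had all CTX samples above the PBS samples. Atrnl1, an attractin relative, was the second highest long gene, with 20.2, 18.0 and 17.6 FPKM after PBS and 18.1, 31.6 and 20.9 FPKM after CTX, and its groups overlapped. With CTX replicate 2 left out, the log2 fold change of Atrnl1 went from 0.30 to 0.07, that of Frmd4a was 0.31 and that of Etl4 went from -0.66 to -0.27. Sugct (0.38), Cpq (0.29), Arhgap6 (0.09), Fars2 (0.05), Lrmda (0.01), Nckap5 (-0.00), Clstn2 (-0.08) and Aff2 (-0.09) made up the rest, and without that sample Sugct had 0.64 and Cpq 0.18. Nckap5 stood between 0.446 and 0.654 FPKM after PBS and at 0.716, 0.312 and 0.627 FPKM after CTX.

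Common fragile site genes, a list of 24, had 12 members among the 76 long genes. Their median was 0.15, the same as that of all 76 genes at this rounding, or 0.08 without CTX replicate 2. Of the 12, 10 lay above 0, among them Exoc4, Immp2l, Auts2, Fhit, Ptprg and Dmd, and 2 below (Dab1 and Wwox). By adjusted p of limma alone, Exoc4 was called higher and 0 were called lower, against 1.40% and 0.360% of all genes tested. The groups did not overlap in 2, Exoc4 and Auts2, both towards higher values. Of all genes tested, 15.0% lay apart towards higher and 14.1% towards lower values. With 12 members, these counts are too small to be read against those shares. Fhit, within the fragile site that breaks most readily in human cells, stood at 1.36, 1.28 and 1.62 FPKM after PBS and at 1.81, 2.46 and 1.61 FPKM after CTX. Wwox, within another of these sites, stood at 2.09, 2.08 and 2.23 FPKM after PBS and at 1.91, 2.09 and 2.13 FPKM after CTX. Neither gene's groups were separated.

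Genes of transcription elongation and transcription-coupled repair were examined beside the long genes. Of 83 genes, 78 were tested, and 0 passed the adjusted threshold of limma in either direction. The median log2 fold change was 0.00, with 39 above and 39 below 0. The groups did not overlap in 9 of the 78 upwards and 8 downwards, where 15.0% and 14.1% of all genes tested did not. The lowest value was that of Ercc2, the helicase of TFIIH that opens DNA around a lesion, which stood at 8.94, 9.57 and 7.92 FPKM after PBS and at 6.46, 5.96 and 6.63 FPKM after CTX (log2 fold change -0.46, limma adjusted p = 0.0801). Mnat1, of the kinase part of the same complex, stood at 3.94, 4.10 and 4.06 FPKM after PBS and at 5.05, 5.27 and 5.401 FPKM after CTX (0.37, limma adjusted p = 0.0795). The highest value was that of the elongation factor gene Tcea3, 1.24 (limma adjusted p = 0.114).

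The 154 long genes under the FPKM limit had a median of the mean FPKM of 0.0304. In 34 of them no sample had more than 3 reads, so a change in either direction was not detectable at this depth. The other 120 had more than 3 reads in some sample. The groups did not overlap in 7 of the 154 towards higher values after CTX and in 11 towards lower values. The 76 long genes over the limit had 13 and 7, but these sets differ in size and in level. No share over other genes of such low FPKM was taken, so these counts cannot be read against each other.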

How the data were processed

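The 6 RNA-seq samples of mouse GCs, 3 per group, were grouped by their labels. Per the labels (the submitters' processing notes), the tools were CASAVA 1.8, fastp, HISAT2 2.0.5, featureCounts 1.5.0-p3 and DESeq2 1.20.0, and the build mm10. The authors deposited FPKM values per gene for each sample. Their group means, fold changes, p-values and adjusted p-values stand in the same table and were not used. Strandedness and poly(A) selection are not given in the sources used here. FPKM is scaled to exonic length, and unfinished transcripts were not measured apart from finished ones.

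Multiplied by gene length, 100% of the values were whole reads (tolerance 0.01), which summed to 16005869 to 17790353 per PBS and 17727770 to 18455011 per CTX sample. log2(FPKM + 0.1) was compared with limma 3.58.1 (lmFit, eBayes with trend) in R 4.3.3 where the mean FPKM reached 0.5 (14463 genes), with Benjamini-Hochberg adjustment over all of these. The fit was also run on simulated reads, with large changes and the same dispersion in every gene and sample. Those settings differ from these data, where CTX replicate 2 stood apart. That run therefore does not test the fit for shifts as small as the median of the long genes. An exact permutation test of 3 against 3 samples cannot give a p below 0.1. No date or batch is given for the samples.

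Coordinates are those of the table and matched GENCODE M21 (GRCm38) in 74 of the 76 long genes. That annotation gave the principal transcripts. Members and gene lists were chosen with earlier results of these data known, so no test over a list is given. Named genes were those passing the threshold, the 5 largest separated changes each way, the 5 highest, the 5 of largest span, those nearest the limits and the largest change of each role list. Other members are named to account for each list, except 2 that are not reported here by name, and genes with a low unadjusted p were named after their values were seen. Tables were handled in Python 3.11.15. Alternatives were other pseudocounts, filters, scalings, span limits, weights and variance models, voom on rebuilt reads, a replicate block and each sample left out. The principal span, the FPKM limit in both groups or after PBS only, the omission of overlapped genes and the span classes without CTX replicate 2 were added after seeing the data.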

Additional observations from a re-analysis of the deposited data

How the results depend on the processing

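The median log2 fold change of the long genes stayed above 0 in all 24 alternatives, from 0.08 (without CTX replicate 2) to 0.23 (mean FPKM of at least 5), and its difference from the shorter genes ran from 0.08 to 0.24. The number of long genes upregulated past 2-fold, 1 in the reported fit, was 0 with a pseudocount of 1, with scaling to library totals, with the replicate block and for genes of at least 1000000 bases, 3 for genes of at least 200000 bases, and 0 to 1 when a sample was left out. The number downregulated past 2-fold, 0, was 1 with arrayWeights. By adjusted p alone, the number higher, 1, was 0 with the replicate block and for genes of at least 1000000 bases, 3 with voom and for genes of at least 200000 bases, 15 with arrayWeights, and 0 to 2 when a sample was left out. The number lower, 0, was 1 with voom, 5 with arrayWeights and 0 to 1 when a sample was left out. With arrayWeights, 5753 of all 14463 genes tested were called by adjusted p alone in either direction, and 657 past 2-fold. The 15 higher and 5 lower of the 76 long genes are to be read against that background, and show no excess of calls among them. The estimate of arrayWeights stopped before it converged, with a weight of 16.6 for CTX replicate 3 and 0.163 for CTX replicate 2. Samples with the same replicate number did not pair, since their deviations correlated by 0.0556, 0.0242 and 0.00581, and the replicate block lowered the calls past 2-fold among all genes from 139 to 50 and gave Exoc4 an adjusted p of 0.0543. For the single genes named by the rule, 355 values kept their direction and their side of the threshold, 13 passed it, 3 of Exoc4 no longer did, and 13 of Macrod2, Mctp1 and Nckap5, which were not called, changed sign. The cause of these shifts was not tested. Long genes had a median of 534 reads per sample, and the SE of their log2 fold change, 0.19 at the median, limits what falls could be seen.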
